A study of Homo sapiens with 6 samples.

Results

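The 9 genes described here encode the kinase that starts mitosis, the cyclins of late S phase to mitosis, and the enzymes that hold that kinase back or release it. They are CCNA2, CCNB1, CCNB2 and CCNF (cyclins A2, B1, B2 and F), CDK1 (the kinase), WEE1 and PKMYT1 (inhibitory kinases), and CDC25B and CDC25C (activating phosphatases). They were picked by gene symbol from the table of raw counts, in which each symbol had 1 row, so 9 of 60564 listed genes are members. All 9 passed the filter on low counts that left 18786 genes for testing.

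RNA sequencing was done on CAL27, a line derived from human tongue squamous carcinoma, grown in medium with fetal bovine serum. The CNTNAP2-203 OE (overexpression) group had been infected with a lentivirus carrying CNTNAP2-203, a transcript of the adhesion gene CNTNAP2. The control group, given as WT for genotype and named EGFP in its sample descriptions, had been infected with a control vector. Both groups were selected with 5 μg/ml puromycin for 2 weeks and held 3 libraries each. The labels name neither the promoter of the construct nor whether the lines were pools or clones, nor whether libraries within a group were separate cultures, so p-values measure how these libraries scatter, and that scatter may be technical only. The series asks how CNTNAP2-203 promotes growth of oral squamous carcinoma cells.

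CDK1 is inactive alone and becomes active once it binds cyclin A or cyclin B. As background, WEE1 in the nucleus and PKMYT1 on membranes add phosphate groups that keep the bound kinase off, CDC25 phosphatases take them away, and active CDK1 in turn inhibits WEE1 and activates CDC25C, which makes the switch abrupt. Mitosis ends when the anaphase-promoting complex marks the cyclins for destruction. Most of these genes are transcribed late in the cell cycle, under the MuvB complex with B-MYB and FOXM1, which act through the CHR element, and under the factor NF-Y, which binds CCAAT boxes. RNA of a whole culture is measured here, so a larger share of cells in late cell cycle and more RNA per cell cannot be told apart.

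The promoters of CCNB1 and CDK1, the members that passed the test, of CCNB2, the near relative of CCNB1, and of CDC25B, whose groups overlapped, are given as the 150 bases before the start of transcription in RefSeq (GRCh38.p14), 5′ to 3′ on the strand of the gene. Capitals mark matches to the CHR form TTTGAA or its variants written TTCGAA, or with a different first base CTTGAA, or in the cyclin B1 gene TTTAAA. They also mark the NF-Y box CCAAT, an E2F form (TTTCCCGC, as well as TTTGGCGC, as well as TTTCGCGC, as well as TTTGCCGC), and the CDK1 element called CLE, spelled TAGCGCGG. Each was searched on both strands, and no marked matches overlap. The stretches lie at chr5:69167000-69167149 (CCNB1, plus strand), chr15:59104996-59105145 (CCNB2, plus strand), chr10:60778328-60778477 (CDK1, plus strand) and chr20:3796160-3796309 (CDC25B, plus strand). For genes with several RefSeq starts, the stretch with the most matches was taken, so those counts are high by choice. CDK1 has 2 RefSeq starts, of which the other lies within the stretch near its 5′ end, and that of CDC25B belongs to 1 of 4 starts. GENCODE 29 places the 5′ ends of CCNB1, CCNB2 and CDK1 inside these stretches.
CCNB1: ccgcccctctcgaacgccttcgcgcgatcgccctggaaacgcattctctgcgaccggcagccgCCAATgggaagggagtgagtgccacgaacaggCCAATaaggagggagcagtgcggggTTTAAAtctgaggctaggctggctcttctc
CCNB2: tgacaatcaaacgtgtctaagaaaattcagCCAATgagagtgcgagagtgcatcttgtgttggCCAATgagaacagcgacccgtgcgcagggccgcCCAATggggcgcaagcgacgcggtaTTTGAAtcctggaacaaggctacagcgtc
CDK1: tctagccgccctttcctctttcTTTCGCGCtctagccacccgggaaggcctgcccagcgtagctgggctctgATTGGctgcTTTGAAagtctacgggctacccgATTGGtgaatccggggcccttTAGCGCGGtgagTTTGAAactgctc
CDC25B: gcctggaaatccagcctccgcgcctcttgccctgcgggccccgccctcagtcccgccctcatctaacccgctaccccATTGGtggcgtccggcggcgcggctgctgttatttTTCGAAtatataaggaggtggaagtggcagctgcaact

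CCNB1 had 2 NF-Y boxes whose first bases lie 32 bases apart, followed by a TTTAAA 30 bases before the start. CCNB2 had 3 NF-Y boxes at a spacing of 33 and 33 bases, with a TTTGAA match 29 bases before the start. CDK1 had 2 NF-Y boxes on the opposite strand, 32 bases apart, with 2 TTTGAA matches, the CLE and 1 E2F match. CDC25B had 1 NF-Y box and 1 CHR match, at 73 and 38 bases before the start. The other members with a RefSeq promoter in the table, CCNA2, CCNF and CDC25C, each had at least 1 CHR and 1 NF-Y match. All 7 members matched in the table thus held both at the start taken. WEE1 and PKMYT1 had no entry. Of all 35116 promoters in the table, 17.3% held a CHR form in the same 150 bases, 23.5% an NF-Y box, 4.47% both, 0.971% a CHR form with at least 2 NF-Y boxes, 1.80% an E2F form and 0.256% the CLE. These shares count every start singly, whereas members with several starts were counted at the start with the most matches, so the 2 are not alike. The other starts of CDC25B held neither motif, and the other starts of CDC25C held no CHR form. The form TTTAAA is that of the cyclin B1 gene and the CLE is that of the CDK1 gene. The CCNB1 match to TTTAAA and the CDK1 match to the CLE were therefore fixed in advance. A match describes the letters and does not show that a factor binds there. CDC25B held both motifs as well at the start taken, but that start was chosen for its matches, and PKMYT1 and WEE1 had no entry. Members with separated and with overlapping groups therefore cannot be compared by the presence of the pair.

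**Figure D1:**
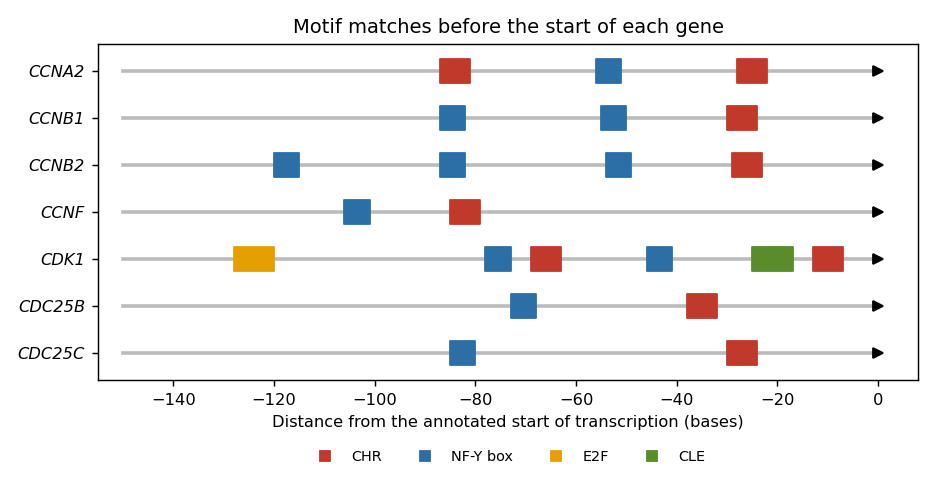
Position of motif matches in the 150 bases before the annotated start of transcription (arrowhead) of the 7 members with a RefSeq promoter, with distance in bases on the x axis and 1 row per gene. The bars of CCNB1 and CCNB2 line up, with NF-Y boxes 32 or 33 bases apart and the CHR form nearest the start.

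The introduced gene separated the groups as labelled. CNTNAP2 had 140022, 156055 and 119280 counts in the CNTNAP2-203 OE libraries, against 0, 3 and 4 in the control libraries. Library totals were 36843190 to 42412703 counts in CNTNAP2-203 OE and 38769375 to 41754789 in control. CNTNAP2-203 OE replicate 3 stood apart from the rest of its group: the chi-square per gene between 2 libraries of a group was 106 and 115 for its pairs, against 41.9 to 49.7 for the other 4 pairs. Of the squamous markers, TP63 and CDH1 were lowest there of all libraries, at 70.9 and 165 CPM, and KRT5, KRT14, EPCAM and SFN were the highest. CPM is the count relative to library size, with sizes scaled by TMM. All 7 squamous markers were detected, with summed levels of 12487 to 15524 CPM in CNTNAP2-203 OE and 12406 to 14008 CPM in control. None of the 7 was called, and KRT17 lay below every control in every CNTNAP2-203 OE library (1559 ± 259 CPM in CNTNAP2-203 OE and 2316 ± 95.5 CPM in control, SD, n = 3 each; edgeR quasi-likelihood adjusted p = 0.0848). Of 6 fibroblast, 6 leukocyte and 5 endothelial markers, 4, 4 and 2 passed the filter and were tested, and none of those was called. The sums over all listed markers were 40.004 to 42.9, 56.7 to 64.7 and 7.74 to 11.5 CPM in CNTNAP2-203 OE, against 40.9 to 45.9, 52.3 to 71.6 and 6.10 to 9.58 CPM in control. COL3A1, DCN, PTPRC, MS4A1, PECAM1, KDR and TEK stayed under 1 CPM in every library, and MS4A1 and KDR had 0 counts throughout. Other markers on these lists were detected in every library of both groups. Across the 6 libraries, the fibroblast markers COL1A1 and LUM ranged from 23.9 to 33.6 and from 8.59 to 12.9 CPM. The leukocyte markers CD14 and CD68 ranged from 21.6 to 31.6 and from 27.8 to 36.6 CPM, and the endothelial marker CDH5 from 4.31 to 9.93 CPM.

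Within the set, the mitotic kinase and its main cyclin rose in CNTNAP2-203 OE, by about the same factor, while the inhibitory kinase WEE1 and the phosphatase CDC25B varied between libraries of one group as much as between the groups. CCNB1 and CDK1 passed the test across all genes, 7 of the 9 members had every CNTNAP2-203 OE library above every control, and no member was called lower. Called higher were 0.798% of all tested genes, against which the 2 of 9 are read, and 0.596% were called lower. All CNTNAP2-203 OE libraries lay above all controls in 13.7% of tested genes and below them in 12.8%. The 7 with separated groups had log2 fold changes of 0.29 to 0.68. The median over the 9 was 0.48, against -0.0038 over all tested genes, of which 49.6% had a positive value.

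**Figure D2:**
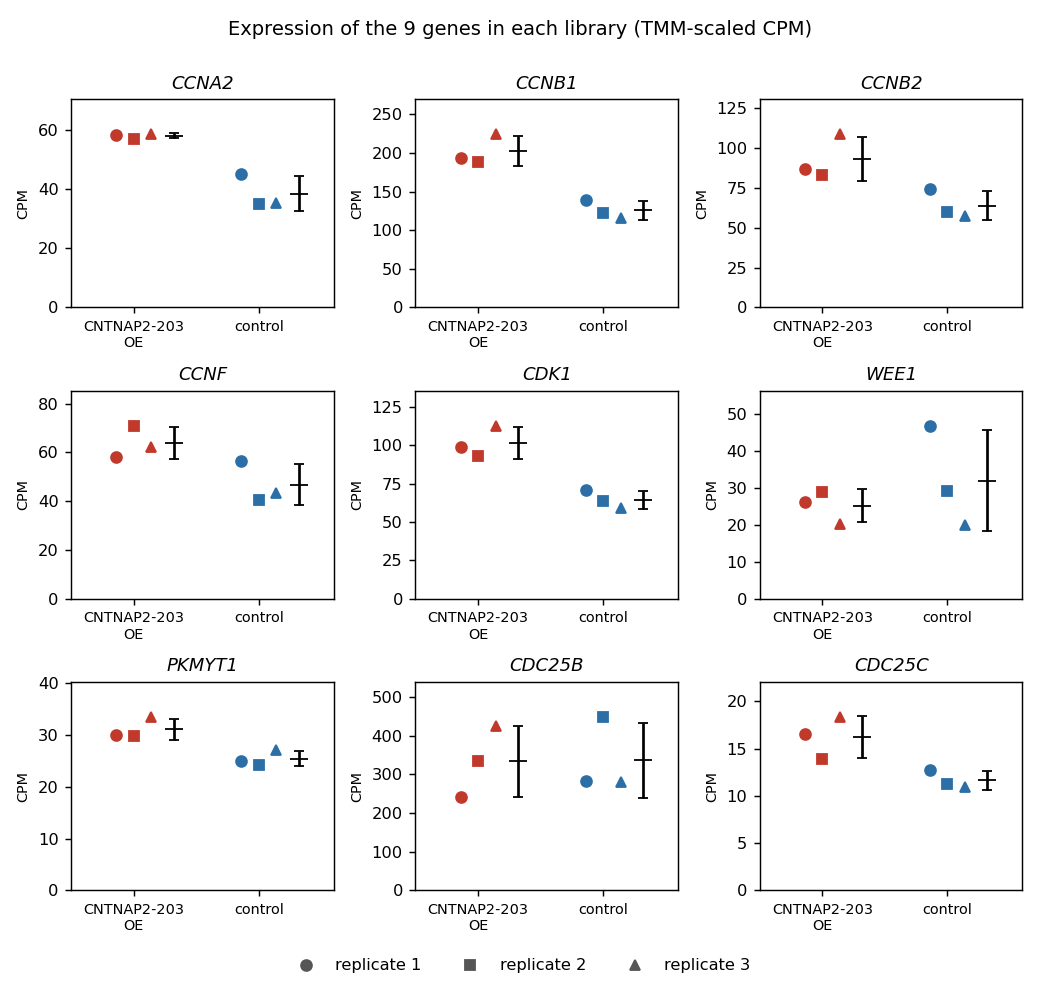
TMM-scaled CPM of the 9 genes in each library (y axis from 0), with CNTNAP2-203 OE in red left of control in blue, a symbol per replicate number, and the mean with its SD (n = 3) in black. In 7 panels every red point lies above every blue one, and in those of WEE1 and CDC25B the groups overlap.

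Cyclin B1, encoded by CCNB1, is the partner with which CDK1 drives entry into mitosis. CCNB1 was at 193, 189 and 224 CPM in CNTNAP2-203 OE replicates 1, 2 and 3, against 139, 122 and 116 CPM in control replicates 1, 2 and 3. The lowest CNTNAP2-203 OE library lay 49.4 CPM above the highest control, the widest such gap of the 7 separated members in CPM. The mean was 202 ± 19.5 CPM in CNTNAP2-203 OE libraries and 126 ± 12.1 CPM in controls (SD, n = 3 each), a rise of 1.61-fold with a 95% interval of 1.34 to 1.93 (log2 fold change 0.68, SE 0.115, edgeR quasi-likelihood adjusted p = 0.0405). CCNB1 (ENSG00000134057) lies at 5:69167010-69178245 on the plus strand (gene positions are from GENCODE 29 on GRCh38), and no other annotated gene shares bases with its exons. With CNTNAP2-203 OE replicate 3 left out, the adjusted p was 0.0268 and the call held; it was lost without CNTNAP2-203 OE replicate 1 (0.113) or 2 (0.0735) and without control replicate 1 (0.0963), 2 (0.185) or 3 (0.20), while the log2 fold change stayed between 0.60 and 0.76.

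CDK1 followed its cyclin closely. CDK1 was at 98.7, 92.8 and 113 CPM in CNTNAP2-203 OE replicates 1, 2 and 3, against 70.7, 63.6 and 59.3 CPM in control replicates 1, 2 and 3. Here too the groups did not overlap, and CNTNAP2-203 OE replicate 3 was the highest and control replicate 3 the lowest library. The mean was 102 ± 10.4 CPM in CNTNAP2-203 OE and 64.5 ± 5.73 CPM in control (SD, n = 3 each), which is 1.57-fold with a 95% interval of 1.31 to 1.89 (log2 fold change 0.65, SE 0.116, edgeR quasi-likelihood adjusted p = 0.0451). CDK1 (ENSG00000170312) lies at 10:60778331-60794852 on the plus strand with no other annotated gene on its exons. The adjusted p was 0.0340 without CNTNAP2-203 OE replicate 3, 0.128 and 0.0735 without replicates 1 and 2, and 0.114, 0.20 and 0.218 without control replicates 1, 2 and 3; it was 0.0541 in limma on the deposited log2(FPKM + 1) values.

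Cyclin A2, encoded by CCNA2, serves in S phase with CDK2 and later with CDK1. CCNA2 was at 58.3, 57.01 and 58.6 CPM in the CNTNAP2-203 OE libraries, against 45.2, 35.0 and 35.2 CPM in the control libraries. The CNTNAP2-203 OE libraries were nearly level and lay 11.9 CPM or more above the controls, of which replicate 1 was the highest. The log2 fold change of 0.59 (SE 0.123) missed the threshold (edgeR quasi-likelihood adjusted p = 0.0687), with a 95% interval of 1.24-fold to 1.84-fold. In DESeq2 the adjusted p was 0.00403. CCNA2 (ENSG00000145386) lies at 4:121816444-121823933 on the minus strand. Its exons share 254 bases, 9.08% of their length, with EXOSC9 on the opposite strand, which the kit used cannot separate. EXOSC9 had 691 to 1200 counts per library, against 1381 to 2469 for CCNA2.

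Cyclin B2, encoded by CCNB2, is the relative of cyclin B1 found mainly at the Golgi. CCNB2 was at 86.8, 83.3 and 109 CPM in the CNTNAP2-203 OE libraries, against 74.0, 60.1 and 57.4 CPM in the control libraries. The groups did not overlap, though control replicate 1 came within 9.27 CPM of the lowest CNTNAP2-203 OE library. The log2 fold change came to 0.54 (SE 0.145, edgeR quasi-likelihood adjusted p = 0.122), and had a 95% interval of 1.15-fold to 1.83-fold. CCNB2 (ENSG00000157456) lies at 15:59105078-59125045 on the plus strand. DESeq2 gave it an adjusted p of 0.0286, and with CNTNAP2-203 OE replicate 3 left out the log2 fold change came to 0.41.

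Cyclin F, encoded by CCNF, binds no CDK and instead selects proteins for destruction by an SCF ubiquitin ligase. CCNF was at 58.0, 71.1 and 62.4 CPM in the CNTNAP2-203 OE libraries, against 56.4, 40.6 and 43.6 CPM in the control libraries. The gap between the groups was only 1.51 CPM, between control replicate 1 and CNTNAP2-203 OE replicate 1. The log2 fold change of 0.45 (SE 0.148) did not pass (edgeR quasi-likelihood adjusted p = 0.184). CCNF (ENSG00000162063) lies at 16:2429394-2458854 on the plus strand, and its exons share 527 bases with AC106820.6 and 219 bases with AC106820.5, antisense genes with at most 27 counts in any library.

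Of the enzymes that switch CDK1 off, PKMYT1, the membrane-bound kinase, was slightly higher and WEE1, the nuclear kinase, had a lower mean with wide scatter; neither passed. PKMYT1 was at 30.04, 29.8 and 33.5 CPM in the CNTNAP2-203 OE libraries, against 25.1, 24.3 and 27.03 CPM in the control libraries. The groups lay 2.72 CPM apart and the log2 fold change came to 0.29 (SE 0.109, edgeR quasi-likelihood adjusted p = 0.231), the 95% interval being 1.03-fold to 1.45-fold. PKMYT1 (ENSG00000127564) lies at 16:2968024-2980539 on the minus strand. Its exons share 1233 bases (24.5%) with PAQR4 and 360 bases with KREMEN2, both on the opposite strand. PAQR4 had 590 to 895 counts per library and KREMEN2 821 to 1100, against 958 to 1272 for PKMYT1. Their effect on the PKMYT1 counts was not tested. WEE1 was at 26.1, 28.955 and 20.2 CPM in the CNTNAP2-203 OE libraries, against 46.8, 28.98 and 20.05 CPM in the control libraries. Control replicate 1 alone lay above all other libraries, and the other controls lay at the upper and lower end of the CNTNAP2-203 OE range. The log2 fold change came to -0.35 (SE 0.309, edgeR quasi-likelihood adjusted p = 0.608), the interval being 0.472-fold to 1.31-fold. It was 0.03 without control replicate 1. These data thus do not fix a direction for WEE1 (ENSG00000166483), which lies at 11:9573681-9593457 on the plus strand.

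Of the phosphatases that switch CDK1 on, CDC25C, which active CDK1 stimulates in return, was higher in CNTNAP2-203 OE without passing the test, and CDC25B, which acts early at centrosomes, showed no direction. CDC25C was at 16.5, 13.9 and 18.3 CPM in the CNTNAP2-203 OE libraries, against 12.8, 11.2 and 10.9 CPM in the control libraries. The groups lay 1.14 CPM apart, and the log2 fold change came to 0.48 (SE 0.148, edgeR quasi-likelihood adjusted p = 0.162), the 95% interval being 1.10-fold to 1.77-fold. CDC25C (ENSG00000158402) lies at 5:138285265-138338355 on the minus strand. Its exons share 293 bases (8.78%) with FAM53C on the opposite strand. FAM53C had 654 to 2201 counts per library, against 443 to 699 for CDC25C, and its effect on the CDC25C counts was not tested. CDC25B was at 241, 335 and 426 CPM in the CNTNAP2-203 OE libraries, against 282, 449 and 279 CPM in the control libraries. The values interleave, with a CNTNAP2-203 OE library lowest and control replicate 2 highest. The log2 fold change was -0.01 (SE 0.264, edgeR quasi-likelihood adjusted p = 0.985), and the interval of 0.642-fold to 1.53-fold leaves room for changes as large as that of CCNA2 or CCNB2 in either direction. CDC25B (ENSG00000101224) lies at 20:3786772-3806121 on the plus strand. Its log2 fold change was 0.18 without CNTNAP2-203 OE replicate 1 and 0.25 without control replicate 2.

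**Figure D3:**
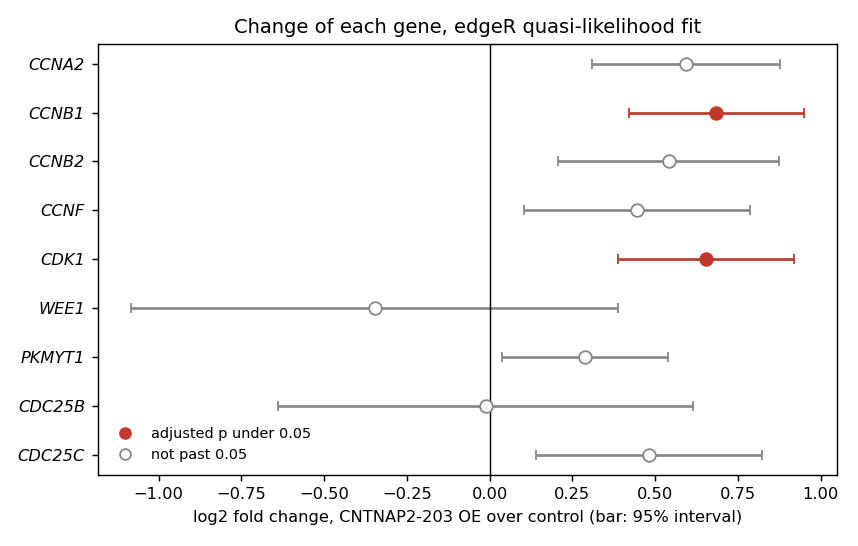
Log2 fold change of each gene, CNTNAP2-203 OE over control (x axis), with its 95% interval from the edgeR quasi-likelihood fit; filled red marks an adjusted p under 0.05. CCNB1 at 0.68 and CDK1 at 0.65 are filled, and the intervals of WEE1 and CDC25B are the widest and span 0.

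CNTNAP2-203 OE replicate 3 was the highest of all libraries for 6 of the 9 members, and control replicate 1 was the highest control for 7; the labels say that control replicate 1 lacks its file of reverse reads. The library that stood apart therefore carried the largest values of CCNB1, CCNB2 and CDK1, but without it CCNB1 and CDK1 still passed, with log2 fold changes of 0.60 and 0.57. The number of calls over all genes moved with the libraries too. Called higher were 0.0828%, 0.222% and 1.59% of tested genes without CNTNAP2-203 OE replicates 1, 2 and 3, and 0.0617%, 0.0411% and 0.0621% without control replicates 1, 2 and 3. Other tools put the share at 4.31% (DESeq2, which called 4 of the 9 members), 0.703% (limma-voom, 2 members) and 0.447% (limma on the deposited log2 values, 1 member). Within edgeR it was 0.735% with RLE scaling, 0.596% with library totals only and 0.603% with no filter, with 2 members called in each, and 0.0586% with a replicate block, with 0 members called.

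Differences between members were tested as the log2 ratio of 2 members within a library, for 4 pairs, with an exact two-sided permutation test that cannot go below p = 0.1 with 3 against 3 libraries. The ratio of CCNB1 to CDK1 hardly varied: it was 0.97, 1.02 and 0.99 (log2 of CPM) in the CNTNAP2-203 OE libraries, against 0.98, 0.94 and 0.97 in the control libraries. The means differed by 0.03 (exact permutation p = 0.3, adjusted over the 4 pairs p = 0.3). The ratio of CCNB1 to CCNB2 was 1.15, 1.18 and 1.05 in CNTNAP2-203 OE, against 0.91, 1.02 and 1.02 in control. Each CNTNAP2-203 OE library lay above each control, by a mean of 0.14, which gave the smallest p the design allows (exact permutation p = 0.1, adjusted p = 0.3). WEE1 to PKMYT1 differed by -0.57, with SDs of 0.36 in CNTNAP2-203 OE and 0.66 in control (exact permutation p = 0.3, adjusted p = 0.3). The difference was -0.36 without CNTNAP2-203 OE replicate 3, -0.24 without control replicate 1 and -0.90 without control replicate 3. CDC25C to CDC25B differed by 0.49, with SDs of 0.40 in CNTNAP2-203 OE and 0.45 in control (exact permutation p = 0.3, adjusted p = 0.3). That difference was 0.26 without CNTNAP2-203 OE replicate 1 and 0.24 without control replicate 2. With 3 libraries a group this permutation test could not pass 0.05, whatever the difference.

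Levels of different genes can be set side by side per length of transcript, for which the deposited log2(FPKM + 1) values were turned back to FPKM (a count scaled to transcript length and library depth). In the mean over all libraries, CDC25B and CCNB1 were the most abundant, then CCNB2, CDK1, CCNA2, CCNF, PKMYT1, CDC25C and WEE1. CDC25B was at 45.7, 64.3 and 76.6 FPKM in CNTNAP2-203 OE, against 54.2, 87.0 and 53.5 FPKM in control. CCNB1 was at 64.8, 64.1 and 71.5 FPKM in CNTNAP2-203 OE, against 47.4, 41.7 and 39.4 FPKM in control, so CDC25B and CCNB1 overlapped in CNTNAP2-203 OE and lay apart in control. CCNB2 averaged 27.1 ± 3.01 FPKM in CNTNAP2-203 OE and 19.2 ± 2.68 FPKM in control, and CDK1 20.7 ± 1.40 FPKM in CNTNAP2-203 OE and 13.6 ± 1.21 FPKM in control (SD, n = 3 each).

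CCNB1 was 3.17 to 3.29 times as abundant as CDK1 in FPKM in CNTNAP2-203 OE libraries and 3.10 to 3.19 times in control libraries, and it was 2.34 to 2.56 times as abundant as CCNB2 in CNTNAP2-203 OE and 2.13 to 2.29 times in control. Among the lower members, CCNA2 averaged 16.7 ± 0.419 FPKM in CNTNAP2-203 OE and 11.4 ± 1.70 FPKM in control, and CCNF 8.15 ± 0.998 FPKM in CNTNAP2-203 OE and 6.15 ± 1.10 FPKM in control. PKMYT1 averaged 5.00 ± 0.165 FPKM in CNTNAP2-203 OE and 4.22 ± 0.225 FPKM in control. CDC25C averaged 3.90 ± 0.420 FPKM in CNTNAP2-203 OE and 2.88 ± 0.242 FPKM in control, and WEE1 2.18 ± 0.458 FPKM in CNTNAP2-203 OE and 2.85 ± 1.22 FPKM in control. CDC25B was thus 11.3 to 18.7 times as abundant as CDC25C in CNTNAP2-203 OE and 17.2 to 31.2 times in control. Neighbours whose ranges met in control were CDK1 with CCNA2 and CDC25C with WEE1, and in CNTNAP2-203 OE only CDC25B with CCNB1 overlapped.

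**Figure D4:**
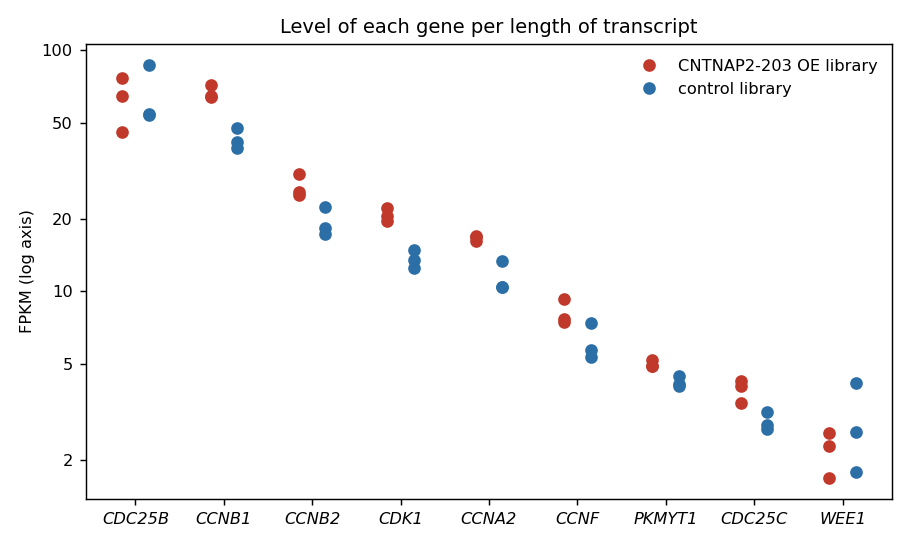
FPKM of each gene in every library on a log axis, ordered by the mean over the 6 libraries, with CNTNAP2-203 OE in red left of control in blue. Levels run from under 5 FPKM for CDC25C and WEE1 to over 40 FPKM in all but 1 library for CDC25B and CCNB1, where that library is control replicate 3 for CCNB1.

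The genes that act on CDK1 and its cyclins were listed by their known roles, as 59 genes in 6 lists, of which 58 were tested; CCNB3, a cyclin of meiosis, had 0 to 9 counts and was not. Of the 58, 5 rose and 1 fell, 48 were positive on the log2 scale, and the median over the list was 0.26. Over all tested genes 0.798% were called higher and 0.596% lower, against which the calls in each single list are read too. The 5 that rose were CDC20, E2F1, MYBL2, RRM2 and EXO1, and the 1 that fell was FOXM1. Without CNTNAP2-203 OE replicate 3 the counts were 7 higher and 1 lower, with 1.59% and 1.21% of all tested genes called. Without CNTNAP2-203 OE replicate 2 they were 3 and 0, with 0.222% and 0.155% called. Without CNTNAP2-203 OE replicate 1 or any one control they were 0 and 0, with at most 0.0828% and 0.0362% called.

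Among 3 tested close relatives, which were CCNA1, CDK2 and CDC25A, none passed. CDC25A, the phosphatase that also acts at the G1/S transition, was at 13.8, 16.0 and 17.003 CPM in CNTNAP2-203 OE, against 8.75, 10.5 and 9.35 CPM in control (log2 fold change 0.71, edgeR quasi-likelihood adjusted p = 0.0607). CCNA1, the cyclin A of the germline, was near the detection limit at 0.698 ± 0.300 CPM in CNTNAP2-203 OE and 1.35 ± 0.140 CPM in control (SD, n = 3 each).

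Of 11 activators of CDK1 none passed, 10 were positive on the log2 scale, and the median over the list was 0.26. CKS1B and CKS2, the small subunits that bind CDK1, were the nearest, without passing. CKS1B was at 156 ± 22.7 CPM in CNTNAP2-203 OE and 98.7 ± 7.94 CPM in control (SD, n = 3 each; edgeR quasi-likelihood adjusted p = 0.0563), and CKS2 at 115 ± 20.8 CPM in CNTNAP2-203 OE and 69.99 ± 11.3 CPM in control (adjusted p = 0.0860). PLK1, the kinase that promotes CDC25C activity and WEE1 destruction, had a log2 fold change of 0.52, and AURKA, which activates PLK1, one of 0.26 with groups that overlapped; both were named after their values were seen. CDK7, CCNH and MNAT1, which form the kinase that activates CDK1 by phosphorylation, and were also named after their values were seen, had log2 fold changes of 0.25, 0.19 and 0.01.

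Of 9 checkpoint and turnover genes none passed, 6 were positive on the log2 scale, and the median over the list was 0.13. CDCA3, which takes part in WEE1 destruction, was at 46.3 ± 4.80 CPM in CNTNAP2-203 OE and 27.7 ± 4.06 CPM in control (SD, n = 3 each; edgeR quasi-likelihood adjusted p = 0.0501), and CHEK2, a checkpoint kinase that inhibits CDC25 proteins, at 32.2 ± 3.50 CPM in CNTNAP2-203 OE and 23.8 ± 0.186 CPM in control (adjusted p = 0.121). CDKN1A, the p21 inhibitor of cyclin-CDK complexes, named after its values were seen, ranged from 60.8 to 82.4 CPM in CNTNAP2-203 OE and from 22.1 to 106 CPM in control, with control replicate 3 lowest.

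Of 11 genes for the destruction of cyclins 1 rose, 10 were positive on the log2 scale, and the median over the list was 0.28. It was CDC20, the activator of the anaphase-promoting complex in mitosis, at 209, 217 and 240 CPM in CNTNAP2-203 OE, against 140, 119 and 120 CPM in control (log2 fold change 0.81, SE 0.108, edgeR quasi-likelihood adjusted p = 0.0211). In 7 of the 11, CDC20 included, every CNTNAP2-203 OE library lay above every control, against 13.7% of all tested genes. The ubiquitin-conjugating enzymes of the complex, UBE2C and UBE2S, had log2 fold changes of 0.76 and 0.68 without passing (edgeR quasi-likelihood adjusted p = 0.0746 and 0.0800), and FBXO5, its inhibitor, one of 0.52 (adjusted p = 0.170). FZR1, the activator after mitosis, had a log2 fold change of 0.06, and the core subunits CDC16, CDC23 and CDC27 ones of -0.04, 0.13 and 0.09. The other listed subunits, ANAPC2, ANAPC10 and ANAPC11, had log2 fold changes of 0.17, 0.28 and 0.42 without passing. All of these genes but CDC20 were named after their values were seen. For CDC20 the adjusted p was 0.0149 without CNTNAP2-203 OE replicate 3 and 0.0569 to 0.135 without any one of the other 5 libraries.

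Of 15 genes listed by known role as promoter factors, 2 rose and 1 fell, 12 were positive on the log2 scale, and the median over the list was 0.27. Their binding to the promoters of the members was not tested. MYBL2, which encodes B-MYB, was at 125, 140 and 151 CPM in CNTNAP2-203 OE, against 93.5, 82.8 and 76.6 CPM in control (log2 fold change 0.72, edgeR quasi-likelihood adjusted p = 0.0374). FOXM1, which joins B-MYB at the MuvB complex, went the other way, at 40.8, 43.7 and 32.9 CPM in CNTNAP2-203 OE, against 74.04, 65.6 and 62.5 CPM in control (log2 fold change -0.78, adjusted p = 0.0411). Its exons share 781 bases (15.9%) with ITFG2 on the opposite strand, which had 329 to 702 counts per library, against 1151 to 2937 for FOXM1. E2F1, a transcription factor of the G1/S transition, was at 47.9, 42.8 and 50.2 CPM in CNTNAP2-203 OE, against 23.5, 24.2 and 26.96 CPM in control (log2 fold change 0.92, edgeR quasi-likelihood adjusted p = 0.0174). In 9 of the 15 every CNTNAP2-203 OE library lay above every control, and in 1 below, against 13.7% and 12.8% of all tested genes. The NF-Y genes NFYA, NFYB and NFYC, named after their values were seen, had log2 fold changes of 0.04, 0.16 and -0.02.

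Of 9 partners and substrates of cyclin F, 2 rose, 8 were positive on the log2 scale, and the median over the list was 0.55. RRM2, a subunit of ribonucleotide reductase that cyclin F marks for destruction, was at 116, 108 and 115 CPM in CNTNAP2-203 OE, against 61.7, 64.7 and 59.8 CPM in control (log2 fold change 0.86, edgeR quasi-likelihood adjusted p = 0.0110). EXO1, a repair exonuclease, was at 37.7 ± 1.05 CPM in CNTNAP2-203 OE and 21.4 ± 1.85 CPM in control (SD, n = 3 each; adjusted p = 0.0214). RRM2 shares 1077 exon bases (20.2%) with AC007240.1, a gene annotated on the same strand that has no count here. Its adjusted p was under the threshold without CNTNAP2-203 OE replicate 2 or 3 and up to 0.0823 without any one of the other 4 libraries.

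**Figure D5:**
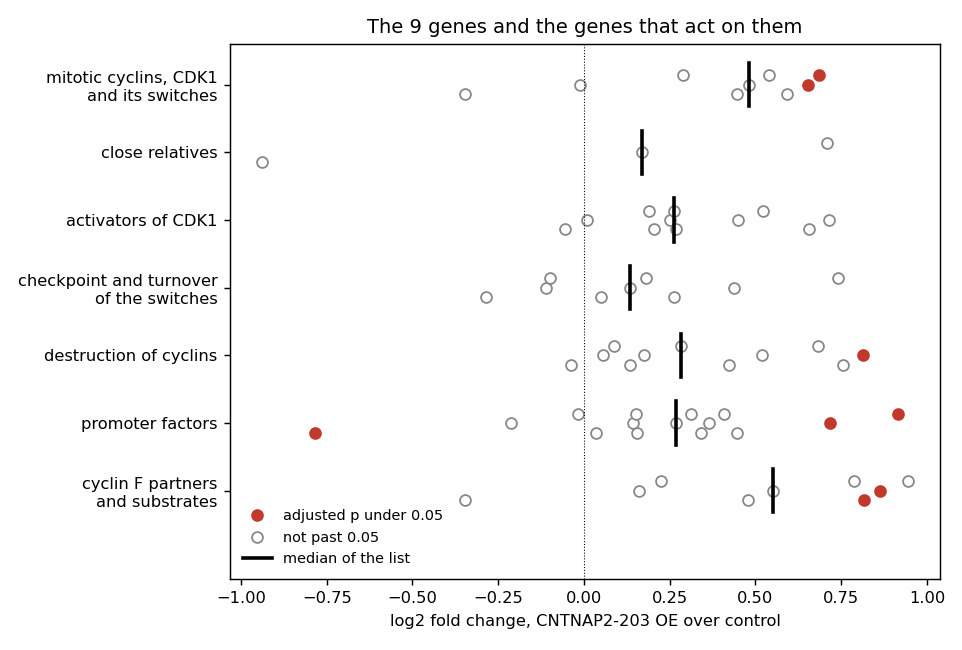
Log2 fold change, CNTNAP2-203 OE over control (x axis), of the tested genes in each list, with the 9 members in the top row, filled red for an adjusted p under 0.05 and a black bar at each median. Medians lie between 0.13 and 0.55, and FOXM1 at -0.78 is the only filled point left of 0.

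Across the 6 libraries, which share the split into 2 groups and the scaling to library totals, the log2 CPM of CCNB1 had a Pearson r of 0.998 with that of CDK1, given as a description. For CCNB2 it was 0.973, for CDC25C 0.971, for CCNA2 0.957, for PKMYT1 0.892 and for CCNF 0.817, against 0.07 for CDC25B and -0.23 for WEE1. The search for likeness covered 12468 other genes of average log2 CPM of at least 1, with clone, LOC, LINC and Ensembl-style names left out. Those most like CDK1 by this measure were TMPO-AS1, CENPN, GLA, HMGB1P5 and NUF2, with r of 0.995 to 0.997. CENPN and NUF2 encode centromere and kinetochore proteins and GLA a lysosomal galactosidase, TMPO-AS1 is an antisense RNA and HMGB1P5 a pseudogene whose reads may come from its parent gene. An r over 0.9 with CDK1 was found for 939 tested genes (5.00%).

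The motif content of the cyclin B promoters was looked up in the other tested genes, with no condition on spacing, order or strand. This split was made after the member promoters were seen and is given with no test. Of 141 tested genes besides the members with a CHR form and at least 2 NF-Y boxes before a RefSeq start, 11 were called higher and 1 lower, which is 7.80% higher, and the median log2 fold change was 0.12. Of 533 with a CHR form and at least 1 NF-Y box, 15 were called higher and 6 lower, with a median of 0.04. Of 11290 tested genes with a promoter in the table, 126 (1.12%) were called higher and 76 lower, with a median of 0.01. Of 6632 with neither motif, 52 (0.784%) were called higher and 46 lower.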

How the data were processed

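RNA was sequenced from 6 CAL27 libraries, 3 CNTNAP2-203 OE and 3 control, grouped by sample title. Ribosomal RNA was removed before library construction (TruSeq RNA v2, an unstranded kit), per the labels' protocols. Per the submitters' processing notes, reads were trimmed with Trim Galore 0.4.4 and the build was hg38. For the aligner, counter, annotation, strand setting and multi-mapped reads, the tools are not stated (not given in the sources used here). Labels report a missing file of reverse reads for control replicate 1.

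The authors deposited raw counts per Ensembl gene and log2 values, which the values themselves show to be log2(FPKM + 1). The count test was that of edgeR 4.0.16 (R 4.3.3): filterByExpr (minimum count 10), TMM (factors 0.951 to 1.02), and a robust quasi-likelihood fit on group alone, with p adjusted by Benjamini-Hochberg over 18786 genes at a threshold of 0.05. SEs are the absolute log2 fold change over the square root of F, and 95% intervals use the fit's degrees of freedom. Scripts were tested on simulated counts. Alternatives used DESeq2 1.42.0, limma 3.58.1 (voom, and trend on the log2 values), other scaling, no filter, a replicate block and leaving out each library.

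The 9 members, the 6 lists and the tests were chosen with earlier results of these data known. The rule for named genes took the members, the called genes of each list or else its 2 with the smallest p, and the 5 genes most like CDK1; other genes of the lists and the markers named in the text were chosen after their values were seen. Coordinates of genes and exon overlaps are from GENCODE 29 (GRCh38), and promoter sequences from RefSeq (GRCh38.p14).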

Additional observations from a re-analysis of the deposited data

How the results depend on the processing

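Of the 9 members, 2 were called higher in the edgeR fit of all 6 libraries, and 4 by DESeq2 (CCNA2, CCNB1, CCNB2 and CDK1, with 4.31% of 14792 genes called higher), 1 by limma on the log2(FPKM + 1) values (CCNB1), and 0 with the replicate block, which left 0.0586% of all genes called higher. Same-numbered libraries did not deviate together over all genes (correlations -0.07, 0.05 and -0.02, against -0.07 to 0.09 for libraries of different number). Whether replicate numbers mark a pairing that acts on some genes was not tested. Leaving out 1 library gave 0 to 2. No member was called lower in any of these fits. Limma-voom, other scaling and no filter left the 2 calls. Of the pathway genes, 5 were higher and 1 lower. DESeq2 gave 18 and 1, with 4.31% and 2.88% of all its genes called higher and lower. No filter on low counts gave 11 and 1 (0.603% and 0.443% of all genes). Limma on log2(FPKM + 1) gave 5 and 0 (0.447% and 0.431%), and the replicate block 0 and 0 (0.0586% and 0.0319%). Leaving out 1 library gave 0 to 7 higher and 0 to 1 lower. The shares of all genes in those fits were 0.0411% to 1.59% higher and 0.0308% to 1.21% lower. The direction turned for CDC25B without CNTNAP2-203 OE replicate 1 (0.18) and without control replicate 2 (0.25), and for WEE1 without control replicate 1 (0.034); over all fits that left out 1 library, CDC25B ran from -0.23 to 0.25 and WEE1 from -0.60 to 0.034, the log2 fold change of neither being called in any fit. The order of the members by FPKM was the same by CPM per kilobase of merged exons and without each library in turn, and the 4 ratios of member pairs kept their direction in all alternatives, but leaving out 1 library moved WEE1 to PKMYT1 over -0.90 to -0.24 and CDC25C to CDC25B over 0.24 to 0.67. The cause of these differences was not tested. CDC25C, the member with the fewest counts, had 443 to 699 counts per library.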
